A study of Mus musculus with 8 samples.

Results

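Acod1 and 8 genes of the tricarboxylic acid (TCA) cycle were followed in mouse macrophages given dimethyl itaconate (DI). They are 9 of the 22165 genes counted in the series. They were taken by name, as the gene of the enzyme that makes itaconate and the genes of core cycle enzymes: Cs, Idh3a, Ogdh, Suclg1, Sdha, Sdhb, Fh1 and Mdh2. All 9 were matched to an Ensembl identifier of the count table, and all 9 passed the filter on low counts. The macrophages came from bone marrow of C57BL/6 mice and had been cultured with M-CSF, a growth factor that drives macrophage formation, for 7 days. The 4 groups were Nrf2 KO cells with DI, Nrf2 KO cells without it, wild-type (WT) cells with DI and WT cells without it, with 2 libraries each. DI was given at 250 µM for 12 h, and no group received a bacterial or interferon stimulus per the labels. Nrf2-/- mice lack the transcription factor NRF2 in all cells and were bought from Jackson Laboratory. The labels do not give the source of the WT mice or the age of the animals. Nor do they say that paired libraries had separate mice or cultures behind them, and the spread that the p-values use may therefore be technical.

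The TCA cycle is the ring of mitochondrial reactions in which acetyl groups are joined to oxaloacetate as citrate and then oxidised, with electrons passed to the respiratory chain. In activated macrophages, ACOD1 (also called IRG1) draws cis-aconitate out of the cycle and decarboxylates it to itaconate. Itaconate is known to inhibit succinate dehydrogenase. Acod1 is known as a gene with little expression in resting macrophages and strong induction by bacterial lipopolysaccharide (LPS) and interferons. NRF2, encoded by Nfe2l2, turns on antioxidant and NADPH-producing genes when electrophiles such as DI modify its inhibitor KEAP1.

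Reads came from transcript 3′ ends, and the libraries held 5554288 to 15680671 counts with 12418 to 13481 genes detected. Levels are in CPM, read counts brought to a common library size with TMM scaling. Because CPM are not per length, levels are compared between libraries and never between genes. A gene passed the test when its edgeR adjusted p was under 0.05 over 11079 genes. Nfe2l2 had 67.7 and 88.1 CPM in KO DI libraries and 40.2 and 53.0 CPM in KO untreated libraries, against 299 and 416 CPM in WT DI libraries and 230 and 454 CPM in WT untreated libraries. All KO libraries lay below all WT libraries for the targeted gene, with log2 fold changes of -2.2 ± 0.33 (SE) with DI and -2.87 ± 0.34 without it. The sources used here do not give where the deletion lies relative to the 3′ reads. Of the 8 macrophage markers, all 8 were tested, and their summed level was 3489 to 4156 CPM in KO DI libraries, 5259 to 5374 in KO untreated, 4150 to 4725 in WT DI and 4232 to 4465 in WT untreated. For DI against untreated, 3 of the 8 were lower in KO cells, against 4.0% of all genes, and 3 in WT cells, against 8.68%. For KO against WT with DI, 1 was higher and 2 were lower, against 11.4% and 9.74% of all genes.

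The promoters of Acod1, Cs and Mdh2 are shown because these were the members that passed the test between the genotypes with DI. The windows are RefSeq's, on GRCm38.p6 (the assembly of mm10), 5′ to 3′ on the gene's strand, from 250 bases before to 50 bases after the start. RefSeq windows were matched for 8 of the 9 members, not for Idh3a, with 13 windows in all. Capitals mark a match to the NF-κB motif GGANNTTCC.
Acod1, chr14:103046762-103047061, plus strand: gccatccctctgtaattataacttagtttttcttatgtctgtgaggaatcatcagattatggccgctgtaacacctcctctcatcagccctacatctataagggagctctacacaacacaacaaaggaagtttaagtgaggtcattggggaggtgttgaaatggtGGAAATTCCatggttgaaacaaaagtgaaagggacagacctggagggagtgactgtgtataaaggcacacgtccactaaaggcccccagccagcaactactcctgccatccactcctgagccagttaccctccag
Cs, chr10:128337477-128337776, plus strand: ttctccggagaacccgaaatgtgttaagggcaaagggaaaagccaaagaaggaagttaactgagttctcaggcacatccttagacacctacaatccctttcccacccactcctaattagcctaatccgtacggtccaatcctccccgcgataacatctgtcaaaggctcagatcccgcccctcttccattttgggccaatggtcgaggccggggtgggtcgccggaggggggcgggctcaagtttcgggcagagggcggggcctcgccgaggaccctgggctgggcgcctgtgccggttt
Mdh2, chr5:135778399-135778698, plus strand: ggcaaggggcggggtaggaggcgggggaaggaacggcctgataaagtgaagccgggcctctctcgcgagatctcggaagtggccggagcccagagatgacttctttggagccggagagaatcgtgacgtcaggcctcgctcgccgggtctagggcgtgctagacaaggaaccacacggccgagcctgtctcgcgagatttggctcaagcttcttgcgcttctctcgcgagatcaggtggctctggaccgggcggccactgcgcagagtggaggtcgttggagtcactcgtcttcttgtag
The Acod1 window was 47% G and C with 2 CpG dinucleotides, against medians of 52.7% and 7 over all 32851 promoter windows. The Cs window was 58.7% G and C with 18 CpG, and the Mdh2 window 62.7% with 27 CpG. Each of 6 motifs was searched on both strands. The motif named NRF1 is that of the nuclear respiratory factor. The Acod1 match to GGANNTTCC begins 85 bases before the start and reads as a match on either strand, and this motif was found in 4.26% of all windows. The other 5 motifs had no match in these 3 windows: the antioxidant response element TGACNNNGC (12.4% of all windows), the interferon element GAAANNGAA (8.56%), the ATF4 and CHOP element TGATGNAA (3.97%), the NRF1 motif CGCNNGCGC (12.1%) and the estrogen-related receptor motif AAGGTCA (4.72%). Among the other members, Suclg1 had a match to the interferon element, Sdha and Ogdh had matches to the NRF1 motif, and Ogdh had a match to the estrogen-related receptor motif.

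Acod1 (ENSMUSG00000022126), which encodes the itaconate-producing decarboxylase, lies on chromosome 14 at 103046977 to 103056573 of mm10, plus strand, with no overlapping gene. It had 24.7 and 21.0 CPM in KO DI libraries, 60.0 and 47.4 CPM in KO untreated libraries, 89.1 and 83.1 CPM in WT DI libraries and 42.5 and 61.6 CPM in WT untreated libraries. The KO DI libraries were the lowest and the WT DI libraries the highest of the 8, while the untreated libraries of both genotypes overlapped in the middle. These levels rest on 207 to 952 reads per library. In bulk RNA, fewer cells expressing the gene and less RNA per cell cannot be told apart.

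In KO cells, Acod1 fell with DI by 1.23 ± 0.25 on the log2 scale, 2.35-fold, to 22.8 ± 2.6 CPM in DI libraries, against 53.7 ± 8.9 CPM in untreated libraries (SD, n = 2 each; edgeR adjusted p = 0.014). This call rested on every KO library: the change was -1.35 without DI replicate 1 (adjusted p = 0.052), -1.12 without DI replicate 2 (0.0538), -1.05 without untreated replicate 1 (0.125) and -1.39 without untreated replicate 2 (0.0547). In WT cells, the level was 86.1 ± 4.21 CPM with DI, against 52.0 ± 13.5 CPM without it. The log2 fold change was 0.72 ± 0.24 (95% interval 0.20 to 1.25) and missed the threshold at edgeR adjusted p = 0.0627, while DESeq2 gave 0.73 with adjusted p = 0.0456. The estimate of the DI effect was thus below 0 in KO cells and above 0 in WT cells, and the test of their difference passed, at -1.96 ± 0.35 (95% interval -2.71 to -1.20, edgeR adjusted p = 0.00713).

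Between genotypes, Acod1 was 3.77-fold lower in KO than in WT cells with DI (log2 fold change -1.92 ± 0.25, 95% interval -2.46 to -1.37, edgeR adjusted p = 0.000328). Without DI the log2 fold change was 0.04 ± 0.24 (95% interval -0.49 to 0.57, adjusted p = 0.981). A difference of a size inside that interval is not excluded. The difference with DI held under all alternatives and with any library left out, where it ran from -2.03 to -1.80. The untreated value changed its direction, at -0.13 without KO untreated replicate 1 and -0.20 without WT untreated replicate 1. In ascending order the levels were those of KO DI, WT untreated, KO untreated and WT DI cells, and the 2 untreated groups did not differ beyond their spread.

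**Figure D1:**
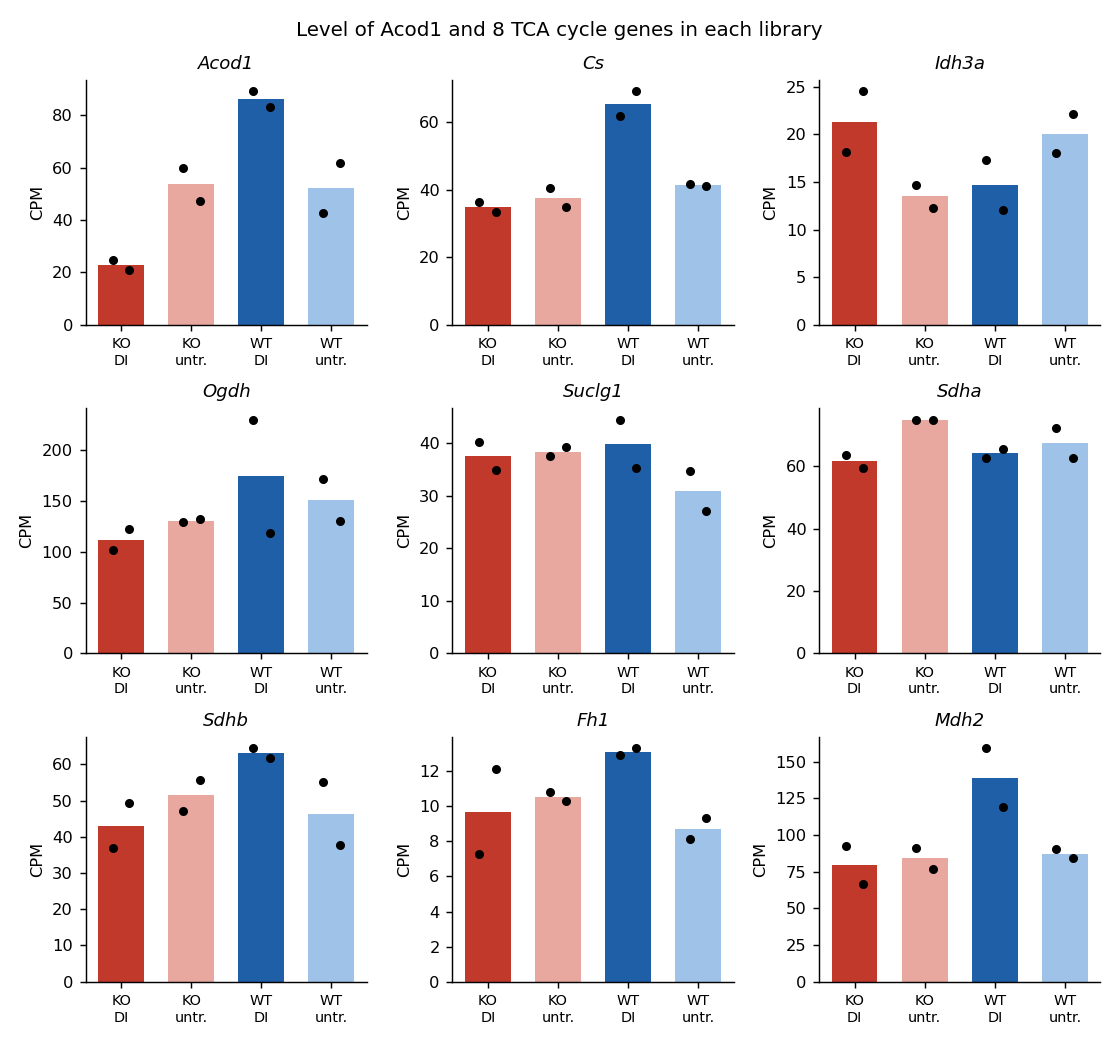
Level of Acod1 and the 8 TCA cycle genes in each library, in CPM on a linear axis from 0 that differs between panels; bars are means of 2 libraries, points are libraries, KO is red and WT blue, and dark bars are DI. Acod1 is lowest in KO DI cells (24.7 and 21.0 CPM) and highest in WT DI cells (89.1 and 83.1 CPM), and Cs and Mdh2 are highest in WT DI cells.

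Citrate synthase, encoded by Cs (ENSMUSG00000005683, chromosome 10, 128337734 to 128362479, plus strand), joins acetyl-CoA to oxaloacetate at the entry of the cycle. Cs had 36.4 and 33.4 CPM in KO DI libraries, 40.4 and 34.9 CPM in KO untreated, 61.7 and 69.1 CPM in WT DI and 41.8 and 41.2 CPM in WT untreated. The WT DI libraries stood above the other 6, which lay close together. With DI, Cs was 1.88-fold lower in KO than in WT cells (log2 fold change -0.91 ± 0.21, 95% interval -1.37 to -0.45, edgeR adjusted p = 0.011). The change with DI was -0.11 ± 0.21 in KO cells (adjusted p = 0.787) and 0.66 ± 0.21 in WT cells (adjusted p = 0.0533). The difference between the 2 changes, -0.77 ± 0.30, did not pass (adjusted p = 0.13). DESeq2 called the WT change, at 0.67 with adjusted p = 0.0434.

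Malate dehydrogenase of the mitochondrion, encoded by Mdh2 (ENSMUSG00000019179, chromosome 5, 135778480 to 135790398, plus strand), closes the cycle by oxidising malate to oxaloacetate. Mdh2 had 92.8 and 66.9 CPM in KO DI libraries, 91.2 and 77.0 CPM in KO untreated, 159 and 119 CPM in WT DI and 90.1 and 84.6 CPM in WT untreated. The WT DI libraries were again the highest, although they differed from each other more than for Cs. With DI, Mdh2 was 1.74-fold lower in KO than in WT cells (log2 fold change -0.80 ± 0.25, 95% interval -1.33 to -0.27, edgeR adjusted p = 0.0364). Its change with DI was -0.07 ± 0.24 in KO cells and 0.67 ± 0.24 in WT cells (adjusted p = 0.0827), and the difference of -0.74 ± 0.35 did not pass (adjusted p = 0.193). The call for Cs was lost without KO DI replicate 2, at -0.84 with adjusted p = 0.0508. That for Mdh2 was lost without KO DI replicate 2 (-0.58), WT DI replicate 1 (-0.60), KO untreated replicate 1 (-0.82) or KO untreated replicate 2 (-0.80), and also with total counts (-0.70) or the 4 DI libraries fitted alone (-0.79).

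Idh3a (ENSMUSG00000032279, chromosome 9, 54586334 to 54604661, plus strand) encodes the catalytic subunit of the NAD-dependent isocitrate dehydrogenase. It had 18.1 and 24.5 CPM in KO DI libraries, 14.7 and 12.3 CPM in KO untreated, 17.3 and 12.0 CPM in WT DI and 18.0 and 22.1 CPM in WT untreated. In contrast to Acod1, Cs and Mdh2, its KO DI libraries lay above its KO untreated libraries and its WT DI libraries below its WT untreated libraries. The change with DI was 0.67 ± 0.27 in KO cells (adjusted p = 0.141) and -0.47 ± 0.27 in WT cells (adjusted p = 0.257). The difference between these, 1.13 ± 0.38 (95% interval 0.31 to 1.96), had an edgeR adjusted p of 0.086 and passed only with no filter on low counts, at 0.0436. Between genotypes its log2 fold change was 0.55 ± 0.27 with DI and -0.58 ± 0.27 without it, and neither passed.

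Ogdh (ENSMUSG00000020456, chromosome 11, 6291633 to 6356642, plus strand) encodes the first enzyme of the α-ketoglutarate dehydrogenase complex. It had 102 and 122 CPM in KO DI libraries, 129 and 132 CPM in KO untreated, 230 and 119 CPM in WT DI and 172 and 130 CPM in WT untreated. WT DI replicate 1 stood far above its partner, so the WT groups overlapped. The log2 fold change of Ogdh in KO against WT cells with DI was -0.64 ± 0.29 (edgeR adjusted p = 0.136), and without WT DI replicate 2 this passed at -1.05 (adjusted p = 0.0217). The direction of its change with DI in WT cells, 0.21 ± 0.29, turned to -0.30 without WT DI replicate 1.

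Suclg1 (ENSMUSG00000052738, chromosome 6, 73248382 to 73276911, plus strand), the α subunit of succinyl-CoA ligase, makes succinate together with GTP or ATP. It had 40.3 and 34.9 CPM in KO DI libraries, 37.6 and 39.3 CPM in KO untreated, 44.5 and 35.4 CPM in WT DI and 34.8 and 27.1 CPM in WT untreated. The 4 groups lay close together, with the WT untreated libraries the lowest, and no comparison passed (log2 changes of -0.40 to 0.37).

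Sdha and Sdhb encode the flavoprotein and the iron-sulfur subunit of succinate dehydrogenase, the enzyme that itaconate inhibits. Sdha (ENSMUSG00000021577, chromosome 13, 74322254 to 74350280, minus strand) had 63.7 and 59.5 CPM in KO DI libraries, 74.9 and 74.8 CPM in KO untreated, 62.7 and 65.7 CPM in WT DI and 72.3 and 62.7 CPM in WT untreated. No member varied less, with log2 fold changes of -0.28 to 0.15 over the comparisons and none past the test. Sdhb (ENSMUSG00000009863, chromosome 4, 140961203 to 140979193, plus strand) had 36.8 and 49.4 CPM in KO DI libraries, 47.2 and 55.6 CPM in KO untreated, 64.4 and 61.7 CPM in WT DI and 55.1 and 37.7 CPM in WT untreated. The WT DI libraries were the highest for Sdhb, and its log2 fold change in KO against WT cells with DI, -0.55 ± 0.25, did not pass (edgeR adjusted p = 0.137).

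Fh1 (ENSMUSG00000026526, chromosome 1, 175600374 to 175625635, minus strand) encodes fumarase, which hydrates fumarate to malate. It was the member with the fewest reads, 62 to 144 per library. It had 7.26 and 12.1 CPM in KO DI libraries, 10.8 and 10.3 CPM in KO untreated, 12.9 and 13.3 CPM in WT DI and 8.13 and 9.32 CPM in WT untreated. The WT DI libraries were the highest here too, but its change of 0.59 ± 0.28 in WT cells with DI did not pass (edgeR adjusted p = 0.178), nor did any other comparison. Fh1 overlaps Kmo on the opposite strand. Kmo had at most 59 counts in a library, and the sources used here do not give whether the counting used strand. Of the other members, Sdha overlaps a processed pseudogene and Cs a small nucleolar RNA gene, neither of which has an entry in the count table.

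**Figure D2:**
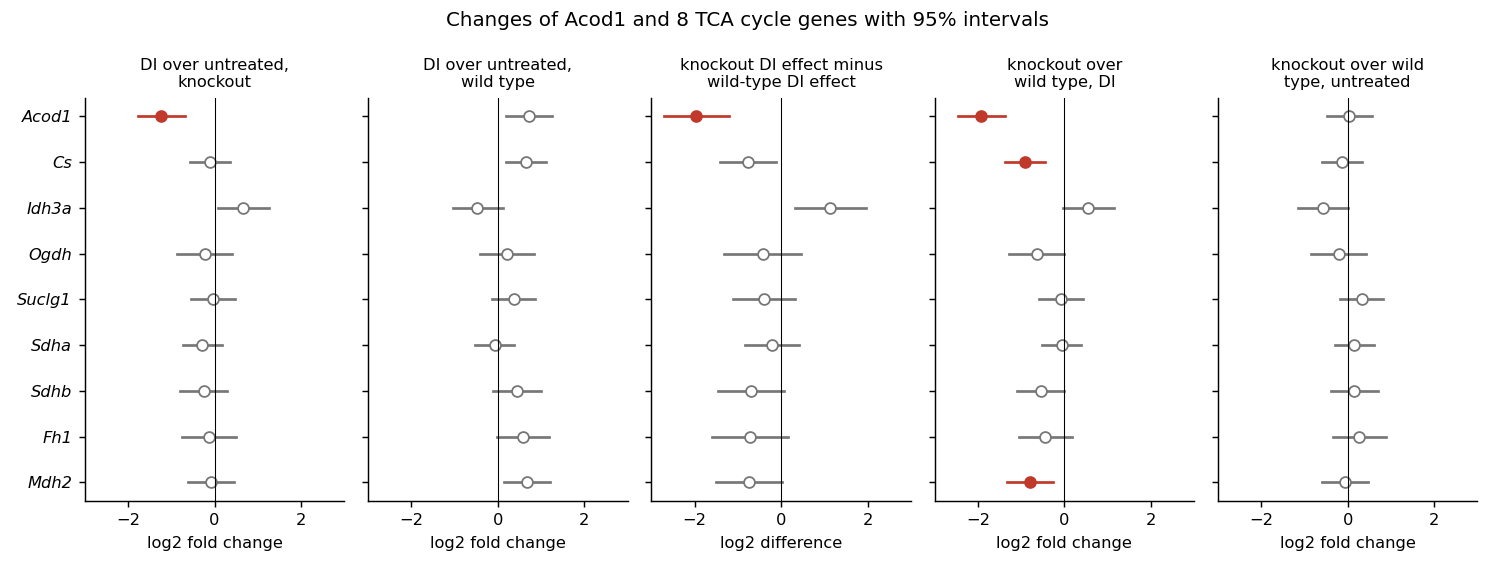
Log2 changes of the 9 members in each comparison, with points for the estimate, bars for the 95% interval and red filled points for genes with an edgeR adjusted p under 0.05. Acod1 passes in 3 of the 5 panels, from -1.23 in KO cells to -1.96 for the difference of the DI effects, and Cs and Mdh2 pass between the genotypes with DI.

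Counted over the 8 cycle enzymes, none passed for DI against untreated in KO cells, where 8.48% of all genes tested passed (4.49% higher and 4.0% lower), and 1 had an unadjusted p under 0.05. DESeq2 called none there as well. None passed in WT cells, where 15.2% of all genes did (6.51% higher and 8.68% lower), with 2 at an unadjusted p under 0.05 and 1 call by DESeq2, that of Cs. Such unadjusted p-values were common over the 11079 genes tested. The gene at an edgeR p of 0.0499 in KO cells ranked 2921 by p, and that at 0.0411 in WT cells ranked 3196. Counts of 1 and 2 in 8 are therefore not above that background. The median log2 fold change of the 8 was -0.12 in KO cells, against 0.00 over all genes, and 0.41 in WT cells, against -0.02 over all genes. The 95% intervals reached from -0.86 for Ogdh to 1.26 for Idh3a in KO cells and from -1.04 for Idh3a to 1.20 for Mdh2 in WT cells, so changes of up to 2.39-fold and 2.3-fold lie inside them. In WT cells, 5 of the 8 had both DI libraries above both untreated libraries and 1 had both below, which was the case for 28.6% and 29.3% of all genes. In KO cells, 1 of the 8 had both above and 2 had both below, against 29.1% and 29.3% of all genes.

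For the difference between the DI effects, none of the 8 passed, against 7.55% of all genes (4.96% higher and 2.59% lower), with 2 at an unadjusted p under 0.05, no call by DESeq2 and 1, Idh3a, with no filter on low counts. Their median was -0.57, against 0.02 over all genes. For this difference, the gene at an unadjusted edgeR p of 0.0496 ranked 2920 by p among the 11079 genes tested. The 2 in 8 under 0.05 are therefore not above that background. Between genotypes with DI, 2 of the 8 passed, Cs and Mdh2, both lower in KO cells, against 21.2% of all genes (11.4% higher and 9.74% lower). A share of 2 in 8 is near that background. The 8 had a median of -0.49, against 0.01 over all genes, and 7 of the 8 were below 0, of which Suclg1 (-0.08) and Sdha (-0.06) turned to 0.02 and 0.05 when libraries were scaled by total counts. Both KO DI libraries lay below both WT DI libraries for 4 of the 8 and above for 1, against 30.5% and 30.1% of all genes. Without DI, none of the 8 passed between the genotypes and none had an unadjusted p under 0.05 or a call by DESeq2, against 0.605% of all genes that passed (0.0812% higher and 0.524% lower). Their median there was 0.05, against -0.01 over all genes. Both KO untreated libraries lay above both WT untreated libraries for 3 of the 8 and below for 2, against 21.8% and 21.7% of all genes. The WT DI libraries enter the WT effect of DI, the difference of the effects and the comparison of genotypes with DI, so these values are not independent of each other.

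Several properties of the libraries moved with these values. The DI effects followed the highest number of A in any 15 bases of a gene's coding sequence, a measure taken because the primer that starts each read binds runs of A. Genes with at most 8 A had a median log2 fold change of -0.20 in KO cells with DI, against 0.18 in WT cells with DI, and genes with at least 12 A had 0.27 in KO cells, against -0.28 in WT cells. Cs and Mdh2 have a highest number of 8, and Acod1 of 10. With the trend removed, KO against WT with DI was -0.63 for Cs (edgeR adjusted p = 0.0629) and -0.51 for Mdh2 (adjusted p = 0.18), so none of the 8 enzymes passed, whereas Acod1 kept its 3 calls. The 13 transcripts of the mitochondrial genome took 1.02% and 1.54% of counts in KO DI libraries and 1.42% and 1.49% in KO untreated, against 1.59% and 2.10% in WT DI libraries and 1.30% and 1.37% in WT untreated. The 10 genes with the most counts held 13.2% to 13.3% in WT DI libraries, against 7.68% to 9.32% in the rest. Stromal markers summed to 14.7 to 21.0 CPM in KO DI libraries and 20.2 to 27.5 CPM in KO untreated, against 46.9 to 51.4 CPM in WT DI and 42.9 to 55.3 CPM in WT untreated. With DI, 3 of the 5 were lower in KO than in WT cells, against 9.74% of all genes. Neutrophil markers summed to 278 to 442 CPM over the 8 libraries, and dendritic cell markers to 6.08 to 12.6 CPM. Lymphocyte markers summed to at most 2.52 CPM, mast cell and basophil markers to at most 1.30 CPM and erythroid markers to at most 0.699 CPM. The part of these properties in the members' values was not tested beyond the trend with A.

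Among themselves, the 8 enzymes did not follow a common pattern over the 8 libraries. The Pearson correlation of log2 CPM ran from -0.66 to 0.88 over the 28 pairs, with a median of 0.19 and 19 positive values. Cs and Mdh2 were the pair with the highest value, Idh3a and Sdha that with the lowest. With Acod1, the correlation was 0.80 for Cs, 0.73 for Mdh2, 0.52 for Ogdh, 0.50 for Sdhb, 0.50 for Fh1, 0.23 for Sdha, 0.03 for Suclg1 and -0.53 for Idh3a. Genes of 1 library share its depth and composition, and the groups set most of each pattern, so these values are descriptions.

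Around the core cycle, 46 further genes of the TCA and pyruvate pathways were listed, of which 43 were tested and Pcx, Pdk4 and Sucnr1 had too few counts. The list member with the smallest p between the genotypes with DI was Idh1, the cytosolic NADP-dependent isocitrate dehydrogenase, which makes NADPH outside the cycle. Idh1 had 32.1 and 33.8 CPM in KO DI libraries, 38.8 and 43.2 CPM in KO untreated, 166 and 156 CPM in WT DI and 54.6 and 45.2 CPM in WT untreated. The WT DI libraries stood far above the other 6, among which the KO DI libraries were the lowest. The log2 fold change of Idh1 with DI was -0.32 ± 0.22 in KO cells (edgeR adjusted p = 0.382), against a rise of 1.69 ± 0.22 in WT cells (adjusted p = 0.00033), and the difference of -2.0 ± 0.30 passed (adjusted p = 0.00299). With DI it was 4.87-fold lower in KO than in WT cells (log2 fold change -2.28 ± 0.22, adjusted p = 3.08e-05). These 3 calls held with any library left out.

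Me1, the cytosolic malic enzyme, turns malate to pyruvate and also yields NADPH. Me1 had 1.28 and 2.53 CPM in KO DI libraries, 0.175 and 0.326 CPM in KO untreated, 14.5 and 19.8 CPM in WT DI and 3.32 and 2.59 CPM in WT untreated. The levels of the 4 groups did not overlap. It rose with DI in KO cells by 2.79 ± 0.64 (edgeR adjusted p = 0.0217) and in WT cells by 2.54 ± 0.35 (adjusted p = 0.000583), and the difference of 0.24 ± 0.69 did not pass (95% interval -1.24 to 1.73). The KO untreated libraries held only 1 and 3 reads of Me1, so the size of its change in KO cells is poorly known, and that call was lost without either KO untreated library (2.52 and 3.36) or KO DI replicate 2 (2.21), or with the 4 KO libraries fitted alone (2.78, adjusted p = 0.056). Me1 was lower in KO than in WT cells with DI, at -3.16 ± 0.38 (adjusted p = 0.00017), and without it, at -3.40 ± 0.60 (adjusted p = 0.0218). The untreated call was the sole one of the list (2.33%, against 0.605% of all genes), and was lost when any of the 4 untreated libraries was left out (-3.98 to -3.12) or when these 4 were fitted alone (adjusted p = 0.0621).

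In KO cells with DI, 6 of the 43 passed (14%, against 8.48% of all genes), with Me1 higher and 5 lower, against 4.49% and 4.0% of all genes. The list's median log2 fold change was -0.22, against 0.00 over all genes. The 5 were Mdh1, the cytosolic malate dehydrogenase (-1.29 ± 0.25, edgeR adjusted p = 0.012), Idh2, the mitochondrial NADP-dependent isocitrate dehydrogenase (-1.28 ± 0.25, adjusted p = 0.0123), the pyruvate dehydrogenase kinase Pdk3 (-1.80 ± 0.40, adjusted p = 0.0196), the succinate dehydrogenase assembly factor Sdhaf4 (-1.14 ± 0.28, adjusted p = 0.0264) and the mitochondrial citrate carrier Slc25a1 (-0.93 ± 0.26, adjusted p = 0.0452). Idh2 had 9.93 and 6.89 CPM in KO DI libraries and 20.6 and 20.1 CPM in KO untreated, against 16.8 and 18.8 CPM in WT DI and 17.4 and 18.6 CPM in WT untreated. The KO DI libraries alone stood apart for Idh2. Mdh1 had 15.7 and 24.8 CPM in KO DI libraries and 49.7 and 49.4 CPM in KO untreated, against 30.3 and 34.4 CPM in WT DI and 44.8 and 48.6 CPM in WT untreated. Its DI libraries lay below the untreated ones in both genotypes, and the gene overlaps Wdpcp on the opposite strand. All 6 calls were lost without KO untreated replicate 1 and without KO untreated replicate 2, with the values of Mdh1 at -1.28 and -1.29 and those of Idh2 at -1.25 and -1.29, so the directions stayed while no list member passed. Calls were also lost for Pdk3 (-1.70 and -1.92), Sdhaf4 (-1.19 and -1.09) and Slc25a1 (-1.11 and -0.76) without KO DI replicate 1 or 2, for Slc25a1 without either WT untreated library (-0.93 each), for Mdh1 without KO DI replicate 1 (-1.0) and for Idh2 without KO DI replicate 2 (-1.03). Slc25a1 also missed the threshold in DESeq2 (adjusted p = 0.0521), with the 4 KO libraries fitted alone (0.0612) and with the trend with A removed (-0.80, adjusted p = 0.0791).

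In WT cells with DI, 6 of the 43 also passed, which at 14% is near the 15.2% of all genes, with 5 higher and 1 lower, against 6.51% and 8.68% of all genes. The list's median was 0.13, against -0.02 over all genes. Besides Idh1 and Me1, the higher genes were the pyruvate dehydrogenase phosphatase Pdp1 (1.07 ± 0.21, edgeR adjusted p = 0.00561), the mitochondrial aspartate-glutamate carrier Slc25a12 (1.20 ± 0.35, adjusted p = 0.0393) and Mpc1, a subunit of the mitochondrial pyruvate carrier (0.74 ± 0.22, adjusted p = 0.0413). Clybl, a mitochondrial enzyme that splits citramalyl-CoA, a product of itaconate breakdown, was the gene that fell (-1.16 ± 0.26, adjusted p = 0.011). Clybl had 11.7 and 11.3 CPM in KO DI libraries and 12.2 in each KO untreated library, against 5.34 and 5.59 CPM in WT DI and 13.7 and 10.8 CPM in WT untreated. Only its WT DI libraries were low, and its change in KO cells was -0.08 ± 0.25, while the difference of the effects, 1.08 ± 0.36, did not pass (adjusted p = 0.087). The Clybl call was lost without WT DI replicate 1 (-1.09), WT DI replicate 2 (-1.17) or WT untreated replicate 1 (-0.98). That of Slc25a12 was lost without either KO DI library (1.20 each), WT DI replicate 2 (0.46) or either WT untreated library (1.09 and 1.31). That of Mpc1 was lost without any KO untreated, WT DI or WT untreated library, with values of 0.65 to 0.83. Both also missed the threshold with total counts or with the 4 WT libraries fitted alone, and Mpc1 with the trend with A removed (0.60, adjusted p = 0.0907).

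**Figure D3:**
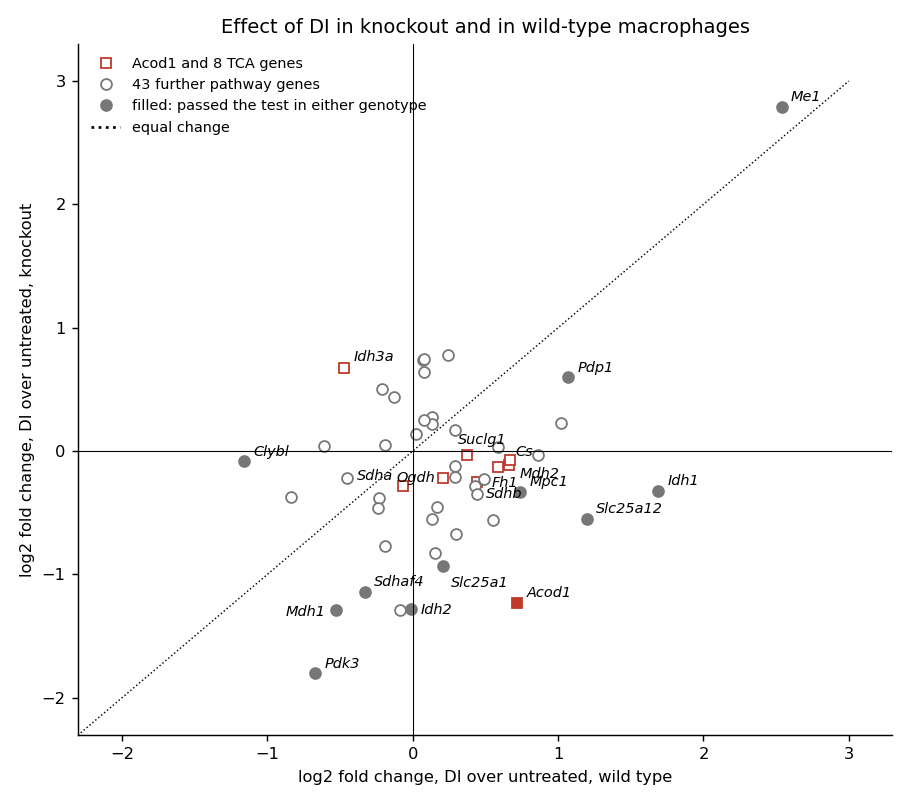
Log2 fold change with DI in KO cells (vertical) against that in WT cells (horizontal) for the 9 members (red squares) and the 43 tested pathway genes (grey circles), filled where the gene passed the test in either genotype; the dotted line marks equal change. Acod1 lies at -1.23 in KO and 0.72 in WT cells, Idh1 at -0.32 in KO and 1.69 in WT cells, and Me1 near the dotted line. The axes share no library.

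For the difference between the DI effects, 2 of the 43 passed, Idh1 and Idh2, both lower in KO cells. That share of 4.65% lies below the 7.55% of all genes (2.59% lower), and the list's median was -0.50, against 0.02 over all genes. Idh2 had -1.26 ± 0.35 (edgeR adjusted p = 0.0448), which became 0.0529 with the replicate number as a block. The call was also lost with the trend with A removed (-0.88, adjusted p = 0.173) and with any library but KO DI replicate 1 left out (-1.37 to -1.02 in those 7 fits). Between genotypes with DI, 10 of the 43 passed, which at 23.3% is near the 21.2% of all genes. Of these, 9 were lower and 1 was higher in KO cells, against 9.74% and 11.4% of all genes, and the list's median was -0.27, against 0.01 over all genes. Beside Idh1 and Me1 these were Mpc1 (-1.34 ± 0.23, adjusted p = 0.00165), Slc25a12 (-1.74 ± 0.36, adjusted p = 0.00627), Idh2 (-1.09 ± 0.25, adjusted p = 0.0102) and, named after their values were seen, Idh3g, Sdhd, Slc25a1 and Pdp1, at -1.36 to -0.65. Idh3g is the γ subunit of the enzyme whose α subunit is Idh3a, and at -0.97 ± 0.25 it lay opposite to the 0.55 ± 0.27 of Idh3a. Sdhd, a membrane anchor of succinate dehydrogenase, had -1.36 ± 0.36, against -0.06 ± 0.21 for Sdha and -0.55 ± 0.25 for Sdhb. Clybl was higher, at 1.07 ± 0.26 (adjusted p = 0.0137). Mpc1 held with any library left out. Slc25a12 was lost without KO DI replicate 1 (-1.65) or WT DI replicate 2 (-0.99), Idh2 without KO DI replicate 2 (-0.84) or WT DI replicate 2 (-1.01), and Clybl without KO DI replicate 1 (1.05), WT DI replicate 1 (1.02) or WT DI replicate 2 (1.10). With the trend with A removed, 5 of the 43 passed, all lower in KO cells, and the calls of Idh2 (-0.80, adjusted p = 0.0537) and Clybl (0.64, adjusted p = 0.131) were lost. Idh1, Me1, Mpc1 and Slc25a12 kept theirs, so most of Idh3g, Sdhd, Slc25a1 and Pdp1 lost theirs. In this comparison Idh3g, Sdhd, Slc25a1 and Pdp1 were not followed singly under the alternatives, and all lost their calls without WT DI replicate 2.

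**Figure D4:**
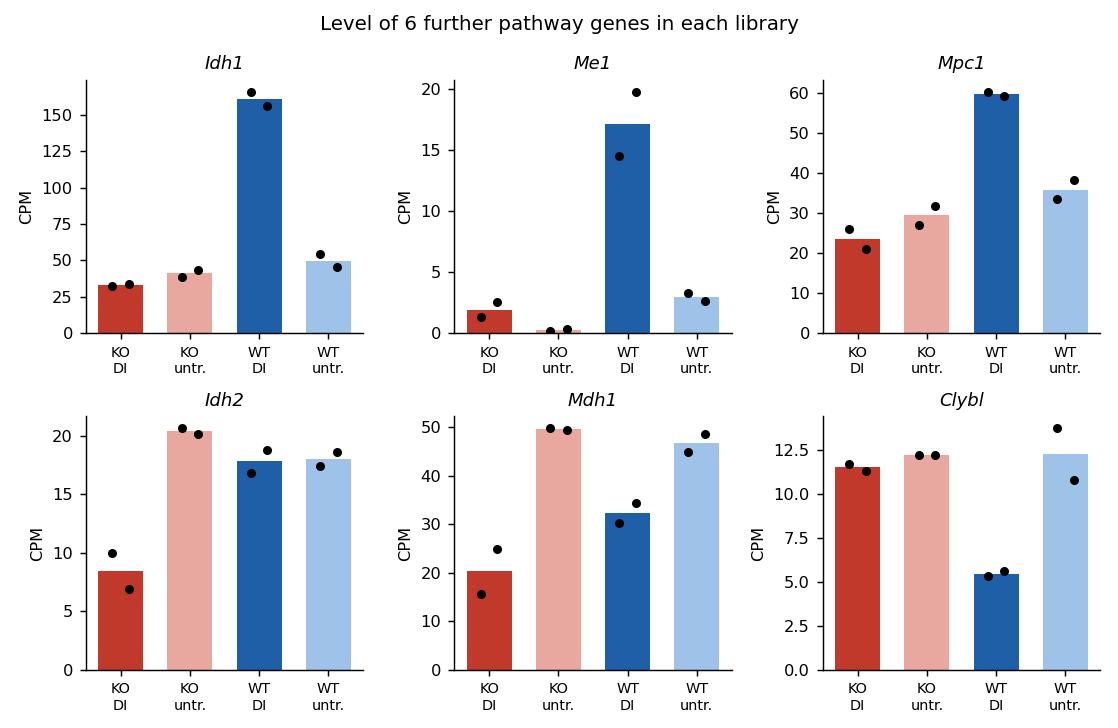
Level of 6 further pathway genes in each library, in CPM on linear axes from 0 that differ between panels; bars are means of 2 libraries, points are libraries, KO is red and WT blue, and dark bars are DI. Idh1, Me1 and Mpc1 are highest in WT DI cells (166 and 156 CPM for Idh1), Idh2 and Mdh1 are lowest in KO DI cells, and Clybl is lowest in WT DI cells.

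Genes with a pattern like that of Acod1 were sought by the Pearson correlation of log2 CPM over the 8 libraries among 7951 genes with at least 10 CPM in the highest group. The highest values were those of Sfxn3, a mitochondrial serine transporter (0.98), Plgrkt, a plasminogen receptor (0.97), the palmitoyltransferase Zdhhc12 (0.96), the protein kinase A inhibitor Pkig (0.95), the lipase family gene Lipo3 (0.95) and the peroxisomal import gene Pex13 (0.95). Sfxn3 had 12.9 and 12.5 CPM in KO DI libraries, 23.3 and 21.3 CPM in KO untreated, 30.6 and 33.8 CPM in WT DI and 22.1 and 23.4 CPM in WT untreated. As with Acod1, its KO DI libraries were the lowest, its WT DI libraries the highest and its untreated libraries in between. The lowest values were those of the RNA helicase Ddx49 (-0.96), the histone methyltransferase Kmt2c (-0.96) and Ubn2, a subunit of a histone chaperone (-0.99). Ubn2 had 181 and 185 CPM in KO DI libraries, 136 and 146 CPM in KO untreated, 122 and 119 CPM in WT DI and 154 and 142 CPM in WT untreated, the mirror image of the order for Acod1. These values describe likeness of pattern over 8 libraries only.

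**Figure D5:**
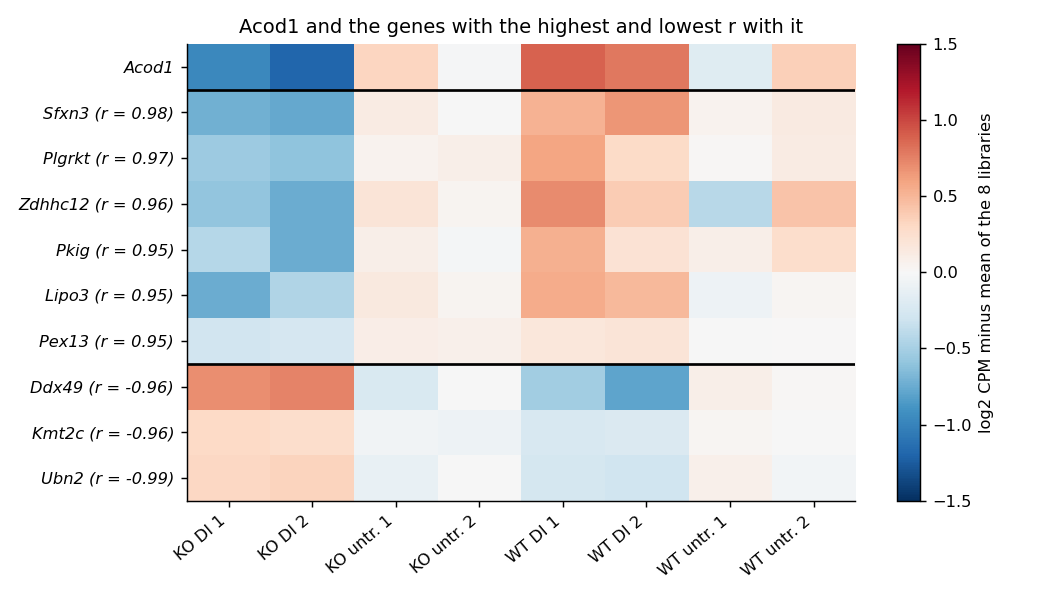
Level of Acod1, of the 6 genes with the highest and of the 3 genes with the lowest correlation with it, as log2 CPM minus the gene's mean over the 8 libraries (red above, blue below). Acod1, Sfxn3 and the other 5 genes are blue in KO DI libraries and red in WT DI libraries, and Ddx49, Kmt2c and Ubn2 are the reverse.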

How the data were processed

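Poly(A) RNA of 8 libraries, 2 in each of 4 groups, was primed with an oligo-dT primer carrying a run of T and a barcode and read near transcript 3′ ends, per the labels' protocols. No molecular identifier is described, so intervals cover counting and library spread of PCR reads. The values the authors deposited are raw counts per Ensembl gene for 22165 genes, with no normalization. STAR, HTSeq and DESeq2 and the build mm10 are listed, per the submitters' processing notes; settings and annotation release are not given in the sources used here. Symbols came from GENCODE M21 for 21822 genes, and the other 343 held 0.0606% of counts. All samples were grouped by their titles.

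Counts were analysed with edgeR 4.0.16 in R 4.3.3: TMM scaling, genes kept by filterByExpr with a minimum count of 10 (11079 genes), 1 mean per group over all 8 libraries, a robust quasi-likelihood F-test and Benjamini-Hochberg adjustment over all 11079 genes, called under 0.05. The contrasts were DI against untreated in each genotype, the difference of these, and KO against WT with and without DI. The standard error was taken from the log2 fold change and its F value. Correlations used log2 CPM with a prior count of 2. The fit was also run on simulated counts for DI against untreated in WT cells only, and no result given here rests on that run. Alternatives were RLE size factors, total counts, no filter, DESeq2 1.42.0, the 4 libraries of a comparison alone, a replicate block, each library left out and removal of the trend with runs of A in the coding sequence.

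The members and lists were chosen with earlier results of these data known. The text names all members, up to 6 called pathway genes and up to 4 called LPS and interferon genes with the smallest p per comparison, and the 6 genes most like and 3 least like Acod1 in correlation. For KO against WT with DI, Idh3g, Sdhd, Slc25a1, Pdp1, Cd40 and Il1b were named beyond this rule. Replicates of a group differed by more than counting noise in all 4 groups (chi-square per degree of freedom 12.8 to 37.9), so none is a repeated deposit.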

Additional observations from a re-analysis of the deposited data

Results flagged for a closer look

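Of all genes tested, 836 (7.55%) passed edgeR's test for a difference in the effect of DI between the genotypes. The 9 members, 43 tested pathway genes and 24 tested LPS and interferon genes held 6 that passed, a share near that background. Of these, 3 belong to Acod1 and the pathway list, and each had a lower DI effect in KO cells: Acod1 at -1.96, Idh1 at -2.0 and Idh2 at -1.26 on the log2 scale. The other 3 belong to the list of LPS and interferon genes. Ptgs2, which encodes cyclooxygenase 2, had a difference of -1.56, Nfkbiz, which encodes IκBζ, a difference of 1.43, and Il12b, a subunit of interleukin 12, a difference of 3.56. Il12b rests on 4 to 84 counts per library. The differences for Acod1, Idh1 and Il12b held with any library left out. That for Ptgs2 did not pass without either KO untreated library, KO DI replicate 1, WT DI replicate 1 or WT untreated replicate 2 (-1.76 to -1.34 over all libraries left out), and that for Nfkbiz without either KO untreated library, WT DI replicate 2 or WT untreated replicate 2 (1.21 to 1.62). The Idh2 difference passed only in the absence of KO DI replicate 1 among the 8 fits with a library left out (-1.54 to -1.02).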

How the results depend on the processing

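The Acod1 differences in DI effect and between genotypes with DI kept their direction and call under all alternatives run. Leaving out a library moved the Acod1 log2 fold change over -1.39 to -1.05 in KO cells with DI, 0.48 to 1.02 in WT cells with DI, -2.25 to -1.71 for the difference of these, -2.03 to -1.80 for KO against WT with DI and -0.20 to 0.33 without DI. The WT change passed with no filter (0.74, adjusted p = 0.0392) and in DESeq2 (0.73). The number of cycle enzymes called was 1 in WT cells in DESeq2 and 1 for the difference with no filter. For KO against WT with DI it was 1 with total counts, 1 with the 4 libraries alone, 0 with the trend with A removed and 0 to 3 with a library left out; it was 0 in the other comparisons. Pathway genes called for the difference were 5 with no filter, 4 in DESeq2 and 1 without the A trend; untreated, 2 with no filter and 0 with the 4 libraries alone; with DI between genotypes, 5 without the A trend. Without a library they were 0 to 7 in KO cells, 3 to 7 in WT cells, 1 to 2 for the difference, 3 to 9 between genotypes with DI and 0 to 1 without it. All genes called, 940 in KO cells with DI, 1683 in WT cells, 836 for the difference, 2345 between genotypes with DI and 67 without it, became 1697 in KO cells, 1597 for the difference and 397 without DI with no filter, and 179 without DI in DESeq2. Without a library they were 104 to 1088 in KO cells, 804 to 1746 in WT cells, 238 to 933 for the difference, 1208 to 2222 between genotypes with DI and 11 to 81 without it. The cause of these shifts was not tested.

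Changes that did not pass changed sign for Sdha in WT cells (0.14), Cs (0.09) and Mdh2 (0.13) in KO cells with the A trend removed, and for Suclg1 (0.02) and Sdha (0.05) between genotypes with DI under total counts, which moved the median of all genes to 0.12 there and to -0.10 in WT cells with DI. With a library left out, sign changes lay in these ranges: in KO cells Cs -0.21 to 0.00, Suclg1 -0.14 to 0.07, Fh1 -0.54 to 0.19 and Mdh2 -0.33 to 0.15; in WT cells Ogdh -0.30 to 0.64 and Sdha -0.17 to 0.03; Ogdh -0.85 to 0.08 for the difference; Suclg1 -0.26 to 0.06 between genotypes with DI; and untreated Ogdh -0.40 to 0.00, Sdhb -0.10 to 0.45 and Mdh2 -0.17 to 0.06.

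Libraries with the same replicate number correlated at -0.08 to 0.156 in their deviations from the group means, with 2 of the 6 pairs of groups over 0.1, and the labels do not say what the number marks, so the libraries were not treated as paired. With the replicate number as a block, the Idh2 difference, -1.27, lost its call (edgeR adjusted p = 0.0529). Pathway genes called were 9 in place of 10 between genotypes with DI and 7 in place of 6 in WT cells. For the difference their number did not fall, so a list gene not recomputed singly gained a call there. No other call changed among the members and the list genes recomputed singly with the block. With 2 libraries a group, a change that did not pass may still have a size inside its interval, and Fh1, Me1 and Il12b rest on few reads.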

Other observations

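Acod1 is known to be induced together with other LPS and interferon genes. A list of 26 LPS and interferon genes was followed, of which 24 were tested and Il6 and Nos2 had too few counts. The list was chosen with earlier results of these data known, so its shares are descriptions. In KO cells with DI, 1 of the 24 passed as higher and 5 as lower, a share of 25%, against 8.48% of all genes tested (4.49% higher and 4.0% lower). In WT cells 1 passed as higher and 9 as lower, a share of 41.7%, against 15.2% of all genes (6.51% higher and 8.68% lower). The median log2 fold change was -0.49 in KO cells, against 0.00 over all genes, and -0.54 in WT cells, against -0.02. Ptgs2, which makes prostaglandin precursors, was the gene that rose in each genotype. It had 12.1 and 12.6 CPM in KO DI libraries and 5.25 and 6.73 CPM in KO untreated libraries, against 39.7 and 38.1 CPM in WT DI libraries and 7.43 and 5.63 CPM in WT untreated libraries. Its DI libraries lay above its untreated libraries in both genotypes, by 1.02 ± 0.26 in KO cells (edgeR adjusted p = 0.0331) and 2.58 ± 0.25 in WT cells (adjusted p = 4.42e-05).

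Interferon-induced genes were among those that fell. Ifit2 changed by -1.52 ± 0.32 in KO cells (edgeR adjusted p = 0.0154) and -2.07 ± 0.32 in WT cells (adjusted p = 0.00126). The chemokine gene Cxcl10 changed by -1.37 ± 0.22 in KO cells (adjusted p = 0.00489), while its -0.40 ± 0.21 in WT cells did not pass (adjusted p = 0.225). Cxcl11 passed in both, at -2.32 ± 0.38 in KO cells (adjusted p = 0.00576) and -2.66 ± 0.44 in WT cells (adjusted p = 0.00175). Its KO call was lost without KO untreated replicate 2 (-1.99). The Ifit2 call in KO cells was lost without KO untreated replicate 1, KO untreated replicate 2 or KO DI replicate 2, with values of -1.83 to -1.25 over the libraries left out. Nfkbiz had 93.8 and 115 CPM in KO DI libraries and 166 and 158 CPM in KO untreated libraries, against 21.8 and 16.3 CPM in WT DI libraries and 73.9 and 84.3 CPM in WT untreated libraries. It was 5.5-fold higher in KO than in WT cells with DI (edgeR adjusted p = 3.87e-05), where Acod1 was lower. Without DI, Nfkbiz was already 2.04-fold higher in KO cells, although this did not pass (edgeR adjusted p = 0.0715). Between genotypes with DI, 5 of the 24 passed as higher, Nfkbiz, Marcksl1, Il12b, Cd40 and Il1b, and 1, Ptgs2, as lower, with a median of 0.36, against 0.01 over all genes. At 25% the share called is near the 21.2% of all genes (11.4% higher and 9.74% lower). Without DI the median was 0.30 and edgeR called none of the 24, against 0.605% of all genes, although 5 had an unadjusted p under 0.05. In that comparison, the gene at an unadjusted edgeR p of 0.0511 ranked 1195 by p among the 11079 genes tested.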
